A study of Schizosaccharomyces pombe with 2 samples.

Results

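The splicing genes rsd1, lsm3, usp105, sr140, srrm1 and mettl16 were followed through the intron, branch point and skipped exon tables of a lariat sequencing experiment in fission yeast (*Schizosaccharomyces pombe*). These 6 genes, of the 1298 named in the 4 tables, hold 16 of the 2354 entries. Of these entries, 7 were annotated introns with a read peak, 6 were introns with branch reads, 3 were circles with a skipped exon, and 0 were introns added to the annotation. The genes were chosen by their read counts and by the skipped exon table. Intron 1 of rsd1 and intron 4 of lsm3 had led a shorter list of splicing genes, intron 6 of usp105 had closed it, and sr140, srrm1 and mettl16 were taken because a skipped exon was listed for each. Those counts and entries are therefore given as a description.

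The cells were strain 972 h- with the dbr1 gene deleted (delta-dbr1), grown under 41 conditions whose RNA was mixed before the gels. Circular RNA was cut from 2-dimensional acrylamide gels, and the second gel was 15% in a short run and 20% in a long run. There was 1 library for each run, no strain with dbr1 among the samples, and no way to set one growth condition against another. The tables of introns and branch points are tied to the short run by their names alone, and the skipped exon table gives 1 count per circle with the run or runs that listed it.

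Introns are removed in a sequence of steps. The U1 particle binds the 5′ splice site, the U2 particle binds the branch point, and the U4, U5 and U6 RNAs then join and rearrange, with U6 taking the place of U1 at the 5′ splice site. The excised intron is a lariat, a circle closed by a bond between its first base and the branch adenosine. Dbr1 cuts that bond, and lariats persist in cells that lack it. Usp105 (SPBC4B4.09), named prp39 in the reference annotation, is a protein of the U1 particle. Rsd1 (SPAC19G12.07c) is an RNA-binding protein related to human RBM39, and Sr140 (SPBC11C11.01) is the counterpart of a human protein found with the U2 particle. Lsm3 (SPBC9B6.05c) is a subunit of the Lsm rings, one of which binds the end of U6. Mettl16 (SPAC27D7.08c), named mtl16 in the reference, belongs to the methyltransferase family that modifies U6. Srrm1 (SPCC825.05c), named pwi1 in the reference, has a PWI domain like the human splicing coactivator of that name.

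The 6 introns printed first are those of the 6 genes with both a peak and a length of over 60 nt. They carry the comparison of splice sites and branch points. Capitals mark the first 6 bases, the leading 7-nt branch sequence where branch reads were listed, and the last 2 bases. Intron 6 of usp105 had no branch reads, so only its ends are in capitals. The letters were read 5′ to 3′ from the NCBI RefSeq assembly ASM294v3. All 6 lie between coding exons there, and each of the 1292 introns in the table of annotated introns ran from GT to AG. No source used here names the build behind the files.
usp105 intron 4 (chr2:3430494-3430580, plus strand): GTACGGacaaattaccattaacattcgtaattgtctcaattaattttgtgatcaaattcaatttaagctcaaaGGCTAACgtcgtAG
usp105 intron 6 (chr2:3431502-3431570, plus strand): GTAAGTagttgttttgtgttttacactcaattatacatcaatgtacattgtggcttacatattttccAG
rsd1 intron 1 (chr1:4055873-4055963, minus strand): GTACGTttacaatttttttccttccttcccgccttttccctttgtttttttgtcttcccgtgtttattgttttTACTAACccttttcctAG
rsd1 intron 2 (chr1:4054986-4055081, minus strand): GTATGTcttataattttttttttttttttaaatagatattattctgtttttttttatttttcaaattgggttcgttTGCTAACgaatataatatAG
lsm3 intron 4 (chr2:1822164-1822264, minus strand): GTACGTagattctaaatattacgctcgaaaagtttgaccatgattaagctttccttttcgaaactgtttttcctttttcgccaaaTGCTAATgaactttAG
mettl16 intron 2 (chr1:4522677-4522754, minus strand): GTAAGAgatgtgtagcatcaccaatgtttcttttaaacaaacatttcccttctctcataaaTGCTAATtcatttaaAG

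The 6 genes hold 31 annotated introns, most of them short, and 7 had a peak in the table of annotated introns. This is 22.6% (Wilson 95% interval 11.4 to 39.8), and over all annotated mRNA introns of up to 2000 nt the share was 24.1%. All 4 introns of 80 to 200 nt were listed, where 89.5% of introns of that length were listed over all genes. Of 4 introns of 60 to 79 nt, 2 were listed, namely intron 6 of usp105 (69 nt) and intron 2 of mettl16 (78 nt), while intron 2 of lsm3 (70 nt) and intron 4 of rsd1 (72 nt) were not. Over all genes 98 of 826 introns of that length were listed (11.9%). Of 23 introns under 60 nt, 1 was listed, intron 1 of srrm1 (53 nt), where the share over all genes was 0.136%. No intron of these genes was longer than 101 nt. The introns that had a peak were thus mainly the longer ones, as the maps of the 6 genes show.

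**Figure D1:**
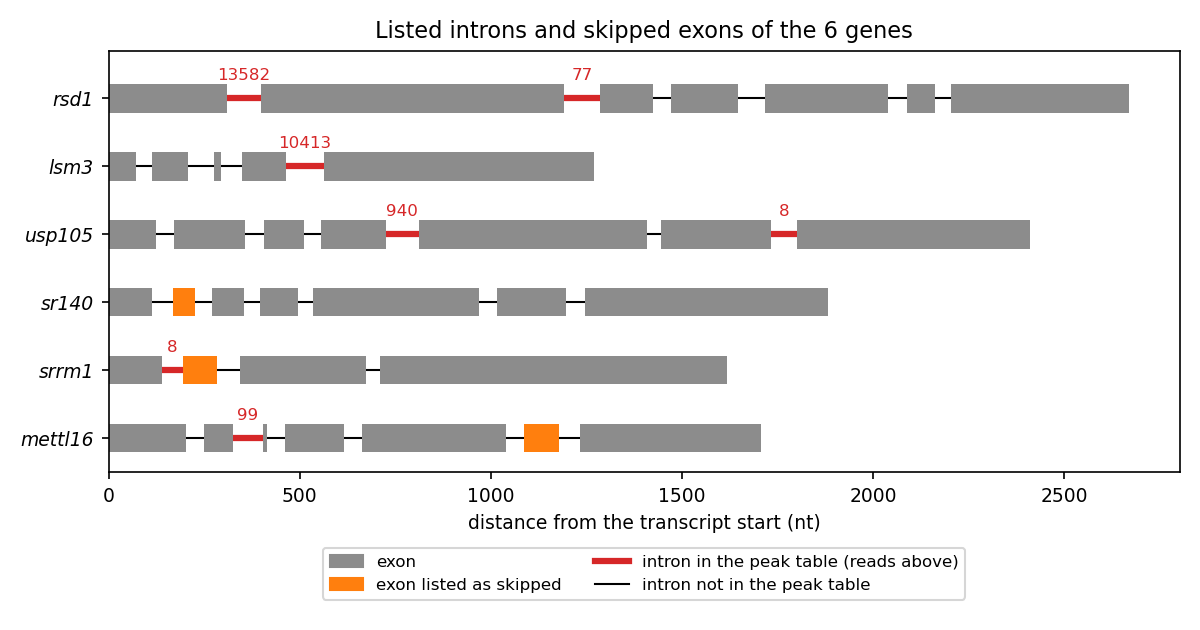
Exons (boxes) and introns (lines) of the 6 genes, drawn to scale from the transcript start in nt as in the reference annotation. Thick red lines are introns with a peak, with their reads above (8 to 13582), thin black lines are introns without one, and orange boxes are the exons listed as skipped in sr140, srrm1 and mettl16.

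The 7 listed introns spanned from 8 to 13582 peak reads, with a median of 99, where the whole table had a median of 438 (quartiles 52 and 2947, n = 1292). Which median was higher depended on the introns counted. At 80 to 200 nt the 4 introns had a median of 5676.5 and all listed introns of that length one of 883. With the highest intron of each gene the medians were 940 and 588, and with at least 50 reads they were 940 and 1183. Each of these sets of the 6 genes holds intron 1 of rsd1 and intron 4 of lsm3, by whose counts those genes were chosen. The medians are therefore a description only. Intervals are exact Poisson 95% intervals. They cover counting error only, and PCR copies can make them too narrow. The lowest count in the whole table was 5 reads, so an intron with 8 reads lies near its floor. The interval of such a count takes no account of introns missing below that floor. Peak reads were not normalized, and their level in a gene may also depend on transcript level, intron length and gel recovery. Each count is therefore set beside the listed introns within 5 nt of the same length, the intron itself included. Transcript level and gel recovery were not measured here, and the length window does not adjust for transcript level.

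Usp105, the gene of the U1 protein, had an intron of middling and one of very low count. Its intron 4 (87 nt) had 940 reads (881 to 1002.1) and its intron 6 (69 nt) had 8 reads (3.45 to 15.8). Their ratio was 118 (exact 95% interval 59.4 to 273), and its lower count lies near 5 reads, the lowest among the annotated introns listed. Intron 4 stood above most introns of its size, with 43 of 184 higher and a median of 158, whereas 29 of the 39 introns near the length of intron 6 were higher, with a median of 14. The other 4 introns of usp105, of 37 to 50 nt, were not listed. The first bases of the 2 listed introns differed as well. Intron 4 began with GTACGG, shared by 5 of the 1292 listed introns (0.387%), and intron 6 with GTAAGT, the start of 483 (37.4%).

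Rsd1 gave the highest count of the 6 genes and, after the next exon, a low one. Intron 1 (91 nt), which follows the first coding exon, had 13582 reads (13354.5 to 13812.4) and ranked 104 of 1292. Intron 2 (96 nt) had 77 reads (60.8 to 96.2). The lengths differ little, yet the ratio was 176 (141 to 224). Near the length of intron 1 there were 169 listed introns with a median of 219 reads, and 9 were higher. Near the length of intron 2 there were 168 with a median of 418, and 116 were higher. Other genes also had introns far apart. Among 20 pairs of listed introns of 1 gene, both of 80 to 200 nt and within 5 nt of each other, the median ratio of the higher to the lower count was 11.7 (quartiles 3.11 and 48.4), and 2 pairs, that of rsd1 included, reached 176. The other introns of rsd1, of 41 to 72 nt, were not listed.

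The base composition of rsd1 intron 1 lay at the edge of the table. C and T made up 80.2% of its bases, and no listed annotated intron had a higher share (median 53.7%, quartiles 50.2 and 57.1). Intron 2 of rsd1 had 63.5%, with 52 introns higher. Intron 4 of lsm3 had 57.4%, intron 4 of usp105 had 50.6% and intron 1 of srrm1 had 41.5%, with 1256 introns higher. Intron 6 of usp105 had 58% and intron 2 of mettl16 had 55.1%. The listed introns of these genes therefore lay on both sides of the median, most of them above it. Whether composition bears on recovery or on alignment was not tested.

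Lsm3 is a small gene of 5 exons for a protein of 93 residues, and its last intron was the one with a peak. Intron 4 (101 nt) had 10413 reads (10213.9 to 10615.0) and ranked 130. Of 159 introns near its length, 17 were higher, and their median was 458. Introns 1, 2 and 3, of 41, 70 and 54 nt, were not listed. Exon 3 of lsm3, between the latter pair, is 18 nt long, and 1.63% of the 2767 internal exons in the annotation were that short or shorter. Intron 4 of lsm3 and intron 1 of rsd1, the highest of the group, both began with GTACGT, the start of 75 listed introns (5.8%). Intron 6 of rsd1 (41 nt) and intron 3 of sr140 (42 nt) began with it too. Neither was listed, at lengths where few introns of any gene were.

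Mettl16 had a single intron with a peak. The peak table calls it intron 3 and the branch table intron 2, and its position and its branch sequence both placed it at intron 2 of the reference transcript. Its 78 nt had 99 reads (80.5 to 121), and 45 of the 123 introns near its length were higher, with a median of 54. It precedes an exon of 11 nt, a length that 0.759% of internal exons do not exceed. Its first bases, GTAAGA, were shared by 71 listed introns (5.5%). The other 5 introns of mettl16, of 46 to 56 nt, were not listed.

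Srrm1 and sr140 consist of short introns throughout. Intron 1 of srrm1 (53 nt) had 8 reads (3.45 to 15.8) and was the shortest intron in the whole table of annotated introns, whose lengths ran from 53 to 837 nt. It lies within the span of the circle with exon 2 of srrm1 (202 nt), which the long run alone listed. Whether its 8 reads came from that circle was not tested. Introns 2 and 3, of 59 and 38 nt, were not listed. Sr140 lies at chr2:3344562-3346442 on the plus strand. None of its 6 introns, of 39 to 53 nt, had a peak or a branch read, so its single entry in the 4 tables was its skipped exon.

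**Figure D2:**
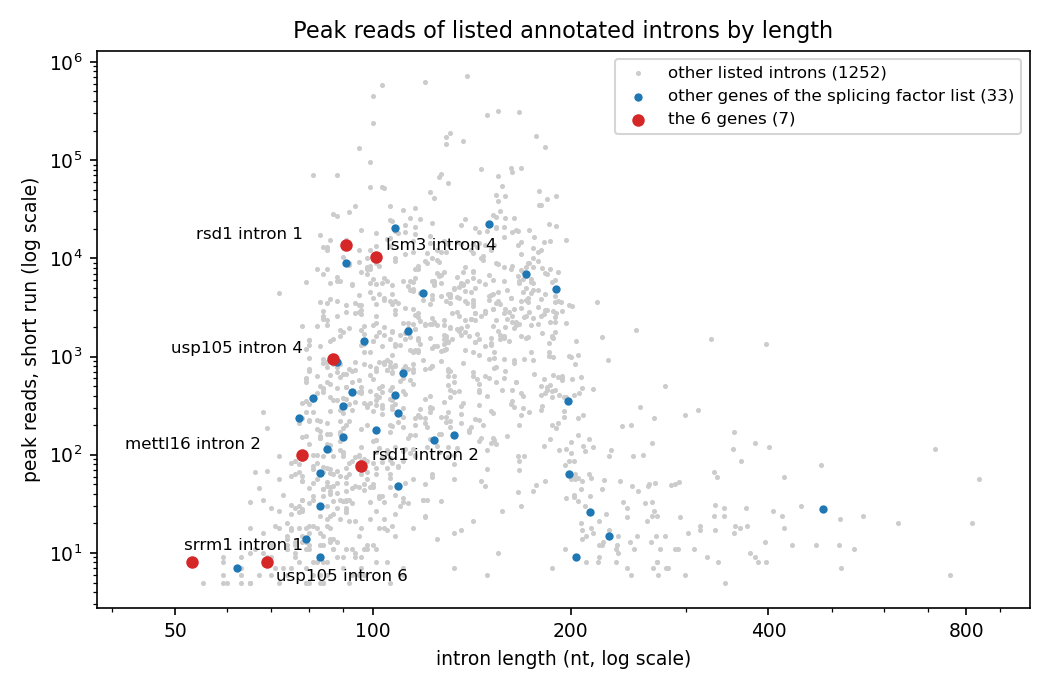
Peak reads of the short run (log axis) against intron length in nt (log axis) for the 1292 introns in the table of annotated introns, 1 point each. The 7 introns of the 6 genes (red) run from 8 reads at 53 nt to 13582 reads at 91 nt, and blue points are the other introns of the wider splicing list.

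Branch reads, which cross the bond at the branch point, were listed for 6 introns of 5 genes, with 292 reads in all. The leading position held 289 of them, 99% (Wilson 95% interval 97 to 99.6), and 98% over the whole branch table. Intron 1 of rsd1 supplied 231 of the 292 reads, so the share is mostly its own. The next most were 32 in intron 4 of lsm3, 16 in intron 4 of usp105 and 10 in intron 2 of mettl16. Intron 2 of rsd1 had 2 reads and intron 2 of srrm1 had 1. The 5 introns with both kinds of reads stood in the same order by branch reads as by peak reads, and introns 6 of usp105 and 1 of srrm1, with 8 peak reads each, had none.

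Intron 1 of rsd1 ranked 13 of 817 introns by branch reads. Of its reads, 228 lay at TACTAAC, the most frequent leading sequence of the table (136 introns, 16.6%), at a listed distance of 11 nt. The other 3 lay at TTACTAA, with a distance of 12 nt, which is the same stretch read 1 base further upstream. Intron 2 of rsd1 had both its reads at TGCTAAC, with a distance of 13 nt (67 introns, 8.2%). The ratio of intron 1 to intron 2 was 116 (31.6 to 959) in branch reads and 176 in peak reads. Intron 1 was chosen by its read count, and both kinds of reads carry the name of the same run. The wide interval rests on 2 reads in intron 2, so the branch reads give no separate support for the contrast.

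Introns 4 of lsm3 and 2 of mettl16 had the same leading sequence, TGCTAAT (34 introns, 4.16%), at 9 and 10 nt. Intron 4 of usp105 led with GGCTAAC (12 introns, 1.47%) at 7 nt, the shortest distance of the group. Intron 2 of srrm1 had its single read at CATTAAT, with a distance of 8 nt, a leading sequence that no other intron in the table had. All 6 leading sequences had TAA at positions 4 to 6, as did 749 of 817 in the table, and position 7 was C in 3 and T in 3, where the table had C in 599 and T in 203 of 817. The listed distances had a median of 9.5 nt (range 7 to 13), where the table had a median of 11 (quartiles 9 and 13). They count the bases from the end of the 7-nt sequence to the end of the intron. From the adenosine at position 6, itself counted, to the end there were 9 to 15 nt in these introns.

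Branch reads were then set against peak reads. Intron 2 of mettl16 had 101 branch reads per 1000 peak reads, intron 2 of rsd1 had 26, introns 1 of rsd1 and 4 of usp105 had 17 each, and intron 4 of lsm3 had 3.07. The median of the 5 was 17, and that of the 752 introns found in both tables was 4.68 (quartiles 1.16 and 19). These 5 introns measure 78 to 101 nt, where all listed annotated introns had a median length of 118 nt (quartiles 93 and 164). The ratio was not set beside introns of like length, so the difference in medians cannot be told apart from length. The highest ratio of the 5 rests on 10 branch reads and 99 peak reads, and that of rsd1 intron 2 on 2 branch reads. Intron 2 of srrm1 had a branch read and no peak, as did 57 of the 809 introns with branch reads that were placed in the reference.

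**Figure D3:**
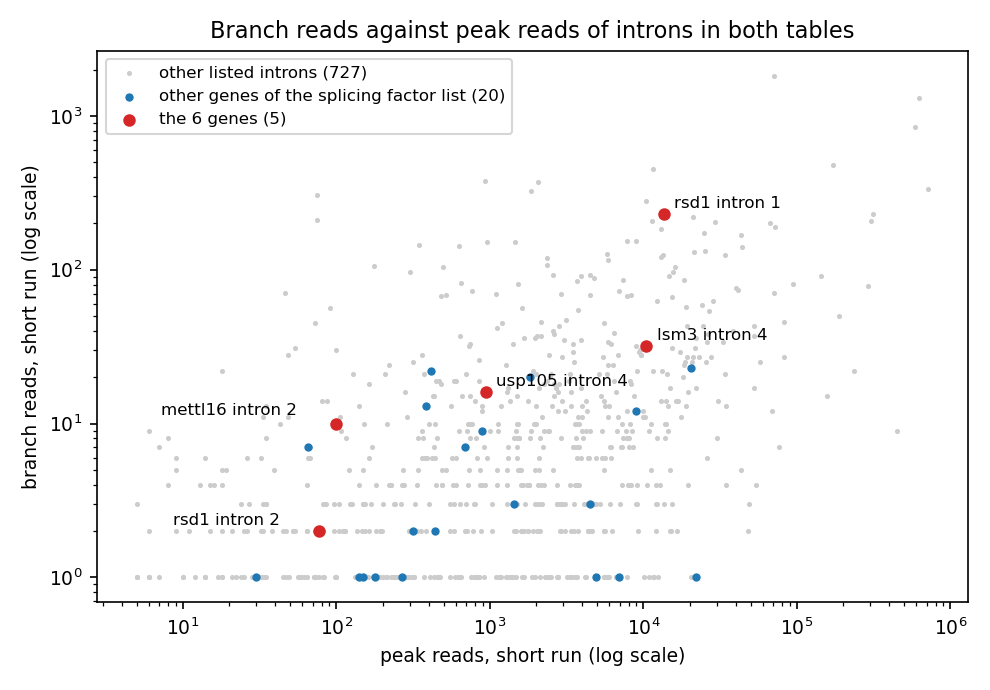
Branch reads against peak reads of the short run (both log axes) for the 752 annotated introns in both tables, 1 point each. Among the 5 introns of the 6 genes (red), intron 1 of rsd1 is highest with 231 branch reads at 13582 peak reads, and intron 2 of rsd1 is lowest with 2 at 77.

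Skipped exons were read from circles that hold an exon together with both its introns, as left when the outer splice sites are joined. The circles of sr140, mettl16 and srrm1 are printed because their sequence gives the listed length and the reading frame. Circle lengths here are that listed length, the exon plus both whole introns. They include the bases after the branch adenosine, which lie outside the closed circle. Capitals mark the exon, and lower case its introns.
sr140 exon 2 circle (chr2:3344677-3344832, plus strand): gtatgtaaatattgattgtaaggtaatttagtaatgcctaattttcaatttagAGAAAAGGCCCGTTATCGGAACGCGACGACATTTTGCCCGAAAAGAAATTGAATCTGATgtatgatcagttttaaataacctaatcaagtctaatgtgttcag
mettl16 exon 6 circle (chr1:4521847-4522039, minus strand): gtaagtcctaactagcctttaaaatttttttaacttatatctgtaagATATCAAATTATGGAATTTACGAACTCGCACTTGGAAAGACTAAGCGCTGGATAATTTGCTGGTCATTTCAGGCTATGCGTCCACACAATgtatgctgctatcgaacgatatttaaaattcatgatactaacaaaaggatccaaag
srrm1 exon 2 circle (chr3:1032270-1032471, minus strand): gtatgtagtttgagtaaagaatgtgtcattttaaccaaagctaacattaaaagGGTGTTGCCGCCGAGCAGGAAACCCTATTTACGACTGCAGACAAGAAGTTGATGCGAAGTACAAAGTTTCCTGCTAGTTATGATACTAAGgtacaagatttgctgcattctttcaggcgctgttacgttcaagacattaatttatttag

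Exon 2 of sr140 had 349 reads (Poisson 95% interval 313 to 388), the third highest of the 23 circles in the table and the highest of the 5 listed by the short run alone. Its circle measured 156 nt, from introns of 53 and 44 nt and an exon of 59 nt. Neither intron was listed on its own. Of the 65 annotated introns within 5 nt of 156 nt, which the same run held, 9 had fewer reads and the median was 2856. The circle lies in a size range where introns were listed, and its separate introns lie in one where 0.136% were. Whether length, abundance or a limit on listed counts accounts for this was not tested.

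Exon 6 of mettl16 had 154 reads (131 to 180) in a circle of 193 nt, and exon 2 of srrm1 had 89 reads (71.5 to 110) in one of 202 nt. Both were listed by the long run alone, where they ranked 2 and 5 of 9. All 9 circles of that kind measured 188 to 279 nt, and none that the short run listed exceeded 184 nt. Listing by the long run alone therefore cannot be told apart from circle length. The introns beside exon 6 of mettl16, of 47 and 56 nt, had neither a peak nor a branch read. Beside exon 2 of srrm1, intron 1 had 8 peak reads and intron 2 had 1 branch read, both from the short run, so these numbers cannot be set against the 89 reads of the circle. The median circle in the table had 107 reads (quartiles 77 and 308). All 3 listed lengths equalled the exon plus both introns in the reference, as did those of all 23 circles.

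The 3 exons differ in what their loss does to the reading frame. Exon 2 of sr140 (chr2:3344730-3344788) begins after 21 codons and 1 base, and 59 is not a multiple of 3. A message without it would reach a stop codon after 22 residues, where the annotated protein has 466. Exon 6 of mettl16 (chr1:4521903-4521992) and exon 2 of srrm1 (chr3:1032329-1032418) are both 90 nt and lie between whole codons, after codons 231 and 6. Messages without them would encode 355 in place of 385 residues and 271 in place of 301. Over the table, 6 of the 23 skipped exons were a multiple of 3 in length. These lengths were computed from the annotation, and the joined messages and proteins were not measured.

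The 6 genes have 25 internal exons, of which the 3 above were listed as skipped (12%), and over all annotated mRNAs the share was 0.831%. Since these genes were chosen for that entry, the share says nothing about them. In 14 of the 25, the exon with its introns spans 121 to 279 nt, the range of all listed circles. The 11 that were not listed include exon 3 of sr140 (169 nt), exon 3 of mettl16 (135 nt, with the exon of 11 nt), exon 3 of lsm3 (142 nt, with the exon of 18 nt) and exon 6 of rsd1 (165 nt). The lowest count in the table was 61 reads, and no source used here gives a limit below which circles were left out.

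**Figure D4:**
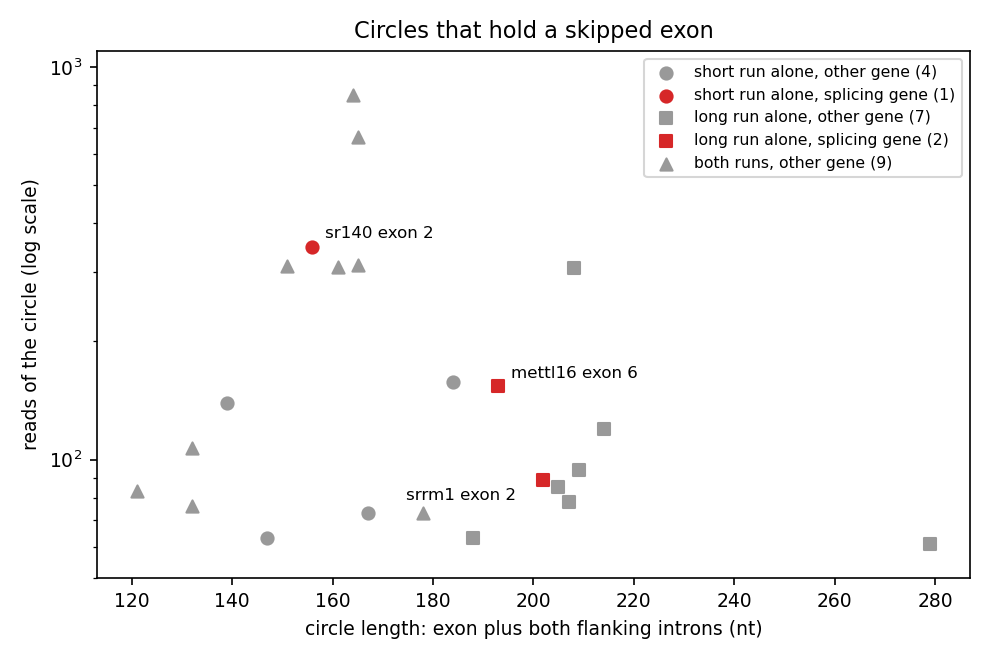
Reads of each circle with a skipped exon (log axis) against circle length in nt for the 23 entries of the table, with marker shapes for the runs that listed them. The 3 splicing genes are in red, with sr140 exon 2 at 349 reads and 156 nt, mettl16 exon 6 at 154 reads and 193 nt, and srrm1 exon 2 at 89 reads and 202 nt.

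The wider splicing machinery gave a frame for these values. A list of 153 names of snRNP proteins, Lsm and Sm proteins, helicases, Cdc5-associated factors, SR proteins and cap or snRNA processing factors matched 128 genes, the 6 included. Of their 211 annotated introns, 39 were listed, which is 18.5% (13.8 to 24.3) beside 24.1% over all genes. At 80 to 200 nt 30 of 33 (90.9%) were listed, beside 89.5% over all genes. With 1 further intron of saf1 that the reference lacks, the peak table held 40 introns of 32 of these genes, with a median of 206 reads, and 13 of the 40 (32.5%) lay above the table's median of 438. Without the 6 genes the median was 236 reads over 33 introns.

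A pair of introns in other genes of the list exceeded that of rsd1. Intron 1 of snu13, whose protein binds the U4 RNA and box C/D snoRNAs, had 22108 reads (21817.5 to 22401.4) and 1 branch read. Intron 1 of cbc2, the small subunit of the nuclear cap-binding complex, had 20332 reads and 23 branch reads. Intron 2 of cwf12, which encodes a Cdc5-associated factor, had 8992 reads. With 91 nt it equals intron 1 of rsd1 in length, and it had 12 branch reads where that intron had 231. Intron 3 of spp27 had 6894 reads, but Spp27 is known as a subunit of an RNA polymerase I factor, and without it the list's median stayed at 206. Intron 6 of srp2, an SR protein gene, had 4905 reads.

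At the low end were intron 1 of uap2 with 7 reads, intron 3 of cyp1 and intron 4 of prp3 with 9 each, intron 1 of tgs1 with 14 and intron 3 of sme1 with 15. Uap2 is a protein found with U2, Cyp1 a cyclophilin, Prp3 a protein of the U4 and U6 particle, Tgs1 the enzyme that modifies the cap of snRNAs and Sme1 a Sm protein. By branch reads the list was led by intron 1 of rsd1 and intron 4 of lsm3, followed by intron 1 of cbc2 with 23, intron 1 of prp4, a kinase gene, with 22 and intron 2 of mug161 with 20. Intron 1 of prp4 reached its 22 branch reads with 410 peak reads, while intron 1 of snu13 had 1 with 22108. Branch reads thus did not simply follow peak reads in these genes. These introns of prp4 and snu13 measure 108 and 150 nt, so their contrast cannot be told apart from length.

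The added introns included 4 assigned to genes of the list and 0 assigned to the 6 genes. The entry named for spf38 had 663 reads, lay on the strand opposite to that gene and outside its reference transcript, and was classed by the authors as unclassified near a 5′UTR. An intron antisense to prp22, a helicase gene, had 623 reads. One classed by the authors as in the 5′UTR of lea1, a U2 protein gene, had 190, and it begins upstream of the reference transcript. An intron in the coding sequence of rbm10, classed as frameshifting, had 104. The median of all 222 added introns was 117 reads. Their lowest count was 50, so the absence of the 6 genes covers no intron with fewer reads. No skipped exon was listed for a gene of the list outside sr140, srrm1 and mettl16.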

How the data were processed

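Circular RNA of pooled delta-dbr1 cultures was sequenced in 1 library for each of 2 gel runs. The tools named are Bowtie 0.12.3 and SAMtools, per the submitters' processing notes. No source used here names the peak caller, its limits, the annotation or the build. The deposited values are raw counts of reads for each intron peak and each skipped exon circle, per the file headers, and a text field with branch sequence, distance and read count for each branch position. The 4 tables held 9296300 reads over annotated introns, 895323 over added introns, 21802 branch reads and 4620 reads over skipped exon circles, which do not give the depth of a library.

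Of 1314 lines for annotated introns, 22 were exact repeats and were counted once. Entries were matched to ASM294v3 by position (1258 of 1292 equalled an mRNA intron at both ends, of which 1222 had the same gene and number) and by the branch sequence at its distance (798 of 817 in the intron of the same number, 11 in another, and 8 not placed). Gaps under 20 nt between reference exons were not taken as introns. Counts have exact Poisson and shares Wilson 95% intervals, and ratios have exact binomial ones. No test was made, since no value has a replicate. The functions for the Poisson and Wilson intervals were tested on simulated data. Those for the ratio intervals and for the placement of branch sequences were not. Python 3.11.15 with numpy 2.4.6, scipy 1.17.1 and matplotlib 3.10.9 was used.

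The members, the lists and the alternatives were chosen with earlier results of these data known. All entries of the 6 genes are named, and from the wider list the 5 introns with most and the 5 with fewest peak reads outside the 6 genes, the 5 with most branch reads, and each added intron and skipped exon. Of its 153 names, 12 matched no gene and others named a gene already matched.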

Additional observations from a re-analysis of the deposited data

How the results depend on the processing

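No paired analysis was possible because each run has 1 library and no result comes from a test. Of 23 alternatives, 10 left their value the same (a median within 1.5 times, a share within its interval) and 13 moved it. The median of the 6 genes' listed introns, 99 reads, was 940 with at least 50 reads (1183 over all listed introns) or with the highest intron of each gene (588), 5676.5 at 80 to 200 nt (883), and 1.27 as reads per nt (3.54 over all listed introns). That of the wider list, 206 reads, was 410 with at least 50 reads, 396 at 80 to 200 nt, and 1.77 as reads per nt, each below the value over all listed introns. At 80 to 200 nt, 100% of the 6 genes' introns and 90.9% of the list's were listed, in place of 22.6% and 18.5%. Each of these selects fewer introns or changes the unit. Without intron 1 of rsd1, a choice made after the data were seen, 100% of branch reads lay at the leading position. Per nt, the circles of sr140, mettl16 and srrm1 had 2.24, 0.798 and 0.441 reads. Keeping repeated lines or accepting 1 equal end left medians and shares the same. Circle reads per 1000 reads of flanking introns were not computed, because 5 of the 6 flanking introns had no listed peak. With 7 introns, the median of the 6 genes describes them and no more. Any limit the authors set on listed counts is not stated.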

Other observations

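The wider list held the largest listed branch distance of the whole table. Intron 2 of lsm2, a gene of another Lsm ring subunit, had 1 branch read at TATTCAT, 277 nt from the 3′ splice site of an intron of 352 nt. Intron 1 of sap62, a U2 protein gene, had 1 read at CGCTAAC, 172 nt from the end of an intron of 316 nt. Neither intron had a listed peak, and each distance rests on a single read. Introns 2 of cdc5 (66 nt, 3 branch reads) and 3 of smd2 (61 nt, 1 branch read) also had branch reads without a listed peak.

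The first 6 bases of 2 introns in the 6 genes were found at the start of 0 of the 1292 listed annotated introns. They were GTACAA in intron 2 of srrm1, which follows its skipped exon, and GTTGGT in intron 1 of mettl16. Neither intron had a peak. Their lengths, 59 and 46 nt, lie where few introns of any gene were listed, so the missing peaks cannot be told apart from length.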
